A study of Saccharomyces cerevisiae with 136 samples.

Results

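Single cells of the budding yeast Saccharomyces cerevisiae that had divided slowly by 16 h after birth were compared with cells of the same age that had divided fast. The comparison covered 17 slow-dividing cells (16-h/S) and 26 fast-dividing cells (16-h/F), which were 43 of the 125 cells with values in the series. At 16 h, 49 cells were listed in all, and 6 of them had no values. All cells were wild type, of strain BY4742 by the source labels and BY4741 by the sample titles, were grown on SD agar plates and were isolated 2, 16 or 36 h after birth. The subgroups were those of the study's own sample list, which splits the age group at its mean generation, the number of times a cell had divided when it was picked. The 16-h/S cells were at generation 5 to 8 (7.12 ± 0.99, SD among cells, n = 17) and the 16-h/F cells at generation 9 to 12 (9.92 ± 0.98, n = 26). GEO's labels give the time but neither the subgroup nor a culture or plate, so each subgroup counts as 1 sample here. Differences between subgroups are therefore given with the spread among cells and without p values, because cells of 1 sample are not replicates of a condition.

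Budding yeast divides asymmetrically, and a mother cell produces a limited number of daughters before it stops. Cells of one genotype and one age in hours can differ in how many daughters they have made, and this comparison asks which transcripts differ between the slow and the fast at an early age. Among the genes that age and division rate are known to touch are those for iron uptake, which the transcription factors Aft1 and Aft2 induce when iron-sulfur clusters made in mitochondria run short. Others are the genes for making ribosomes and proteins, which fast growth requires, and those for respiration and for protein quality control.

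The 16-h/S cells had fewer genes detected than the 16-h/F cells. Slow cells had reads of 1241 to 3052 genes (median 2105) and fast cells of 1358 to 3765 (median 2356). The subgroups overlapped over most of this range. Read totals on genes ran from 100162 to 545273 in 16-h/S and from 95476 to 833501 in 16-h/F. When every cell was thinned to 90000 reads the mean was 1949 ± 440 genes in 16-h/S (SD, n = 17) and 2298 ± 409 in 16-h/F (n = 26), against 2112 ± 534 and 2505 ± 511 before thinning. External RNA (ERCC) spike-in took more than 0.5 of the reads in 5 of the 17 16-h/S cells, which had 1241 to 1708 genes detected, and in 1 of the 26 16-h/F cells, which had 1358. A high spike-in share goes with little RNA from the cell, and fewer transcripts per cell cannot be told apart here from a less complete conversion to cDNA. Most strain markers were those of a MAT alpha strain, with reads of MF(ALPHA)1, the gene of the alpha mating pheromone, in 28 of the 43 cells and reads of STE2, the pheromone receptor of MATa cells, in 0 of 43, which by counting error alone allows a share of cells with a read of up to 6.98% and sets no limit on cells expressing the gene. BAR1, a protease made by MATa cells, had reads in 5 cells. BY4742 is a MAT alpha strain and BY4741 a MATa strain.

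**Figure D1:**
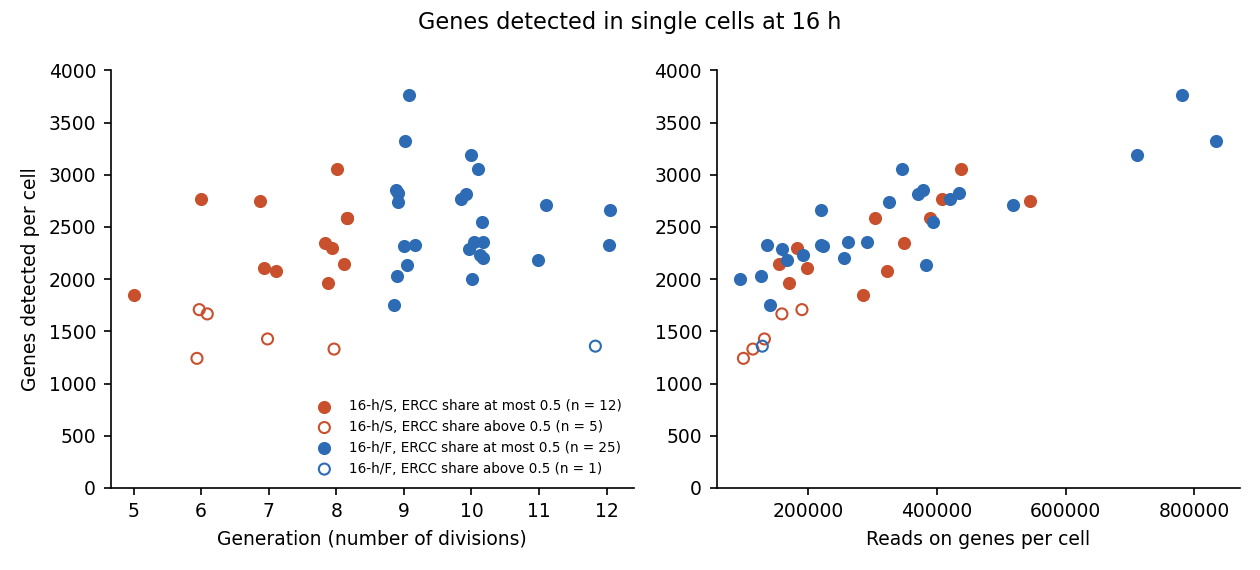
Genes detected per cell against generation (left, points spread sideways by up to 0.18) and against reads on genes (right), 1 point per cell, red for 16-h/S and blue for 16-h/F, open where the ERCC share was above 0.5. The 5 open red points lie between 1241 and 1708 genes, at the bottom of the 16-h/S range.

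Because the fast cells had more genes detected, each gene was set beside genes of similar level. The level of a gene is the mean of its 2 subgroup means, each taken over the log2 normalized counts of the cells of that subgroup. The difference of a gene is its 16-h/S mean minus its 16-h/F mean, and its relative difference is what remains after the median difference of the 200 tested genes nearest in level is subtracted. Genes were tested if at least 50% of the cells of either subgroup had reads, which left 2269 of the 5944 genes with a read at 16 h. The median difference of the tested genes was −0.38, and 1616 of them (71.2%) had the lower mean in 16-h/S. The quartiles of the relative differences were −0.52 and 0.47, while the SD of a gene among cells had a median of 2.62 in 16-h/S and 2.41 in 16-h/F. A relative difference of at least 1, a fold of 2 on this scale, is called past the fold. It was reached upward in 16-h/S by 239 genes (10.5%) and downward by 231 genes (10.2%), together 20.7% of those tested. In no tested gene were the 2 subgroups free of overlap. A gene with reads mostly in 16-h/S could enter the test only through that subgroup, as 84 of the 239 higher genes did, and 135 of the 231 lower genes entered through 16-h/F alone. The log2 of the value plus 1 was averaged over cells, many of them at 0, so a relative difference is not the fold of mean counts. It can be larger or smaller than that fold. By the ratio of mean normalized counts PYC2 was at −1.42 in place of −3.24, and SAE2 at 4.37 in place of 2.34.

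**Figure D2:**
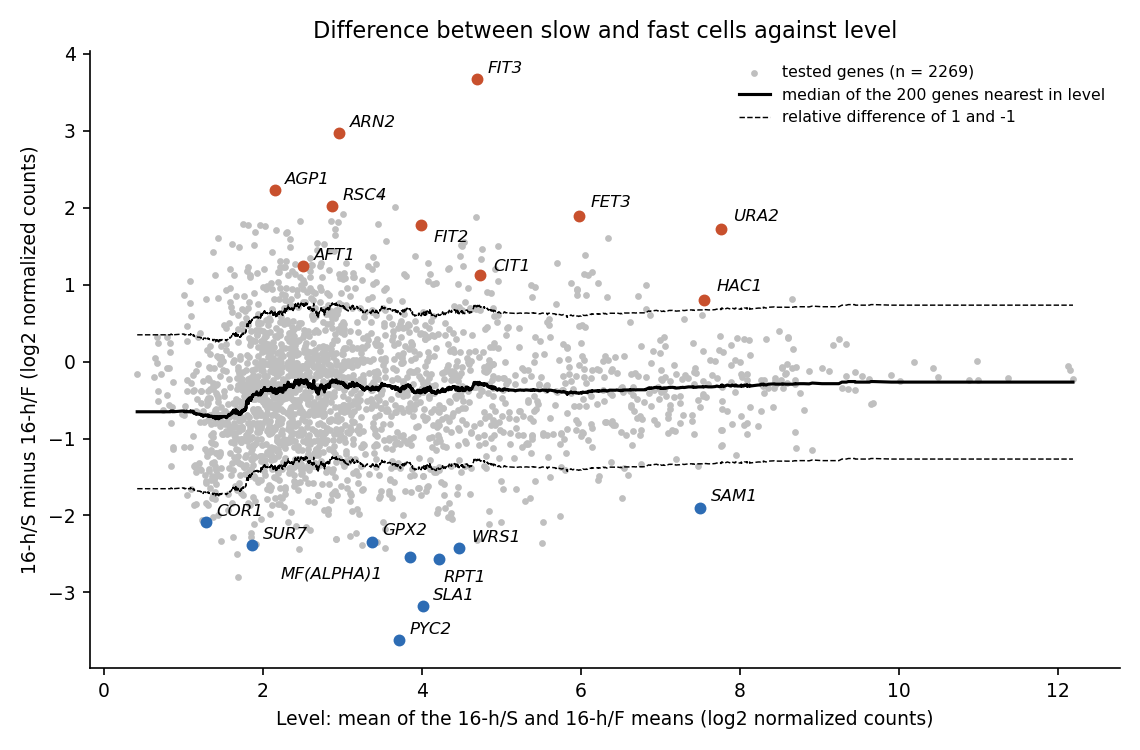
Difference of mean log2 normalized counts, 16-h/S minus 16-h/F, against the level of the gene, 1 grey point for each of the 2269 tested genes, with the median of the 200 nearest genes as a line and relative differences of 1 and −1 dashed. FIT3 and ARN2 stand highest and PYC2 and SLA1 lowest, and the spread narrows at high level.

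Genes of iron uptake led the list of genes higher in 16-h/S. FIT3, a mannoprotein of the cell wall that retains iron-loaded siderophores, had the largest relative difference of all tested genes, 3.96. ARN2, a transporter that takes up the siderophore triacetylfusarinine C, came next with 3.24, and FET3, the multicopper oxidase of high-affinity iron uptake, was eighth with 2.31. The 12 genes of largest relative difference ended with ERV41 at 2.21, and the next were DOG2, a sugar phosphatase, at 2.20 and FIT2, a paralog of FIT3, at 2.18.

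The binding site of Aft1 has the core TGCACCC, and these sites are printed because the genes that carry them head the comparison. The 500 bases before the coding start were searched for TGCACCC on both strands in the R64 genome sequence from RefSeq, which is the build the authors used. The capitals mark the core, and each sequence is given 5′ to 3′ on the strand that carries it.
FIT3, chromosome XV:1061323-1061351, minus strand: agattttttttTGCACCCtgtttgttccg
FIT3, chromosome XV:1061222-1061250, plus strand: ccccattttttTGCACCCtttcctagaat
ARN2, chromosome VIII:10643-10671, plus strand: gaactaagaacTGCACCCattttctgatt
FET3, chromosome XIII:388560-388588, plus strand: atcttcaaaagTGCACCCatttgcaggtg
FIT2, chromosome XV:1059254-1059282, plus strand: atttaaaacaaTGCACCCtaagttcaaat
The end of the first FIT3 core nearest the gene lay 279 bases before the start codon and that of the FET3 core 245 bases before it. FIT2 had 4 cores in its window, of which 1 is shown. The core was found in 140 of all 6002 nuclear protein-coding genes (2.33%), in 3 of the 12 genes highest in 16-h/S (FIT3, ARN2 and FET3) and in 1 of the 12 lowest. It was found in all 7 genes of the list of cell wall and siderophore genes and in 11 of the 13 of reductive iron uptake, so genes with and without a difference at 16 h carry it. A match describes the letters in the window and does not show that a factor was bound.

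FIT3 (YOR383C, chromosome XV:1060441-1061055, minus strand) ran from 0 to 11.7 log2 normalized counts with a median of 6.84 in 16-h/S, and from 0 to 7.11 with a median of 3.56 in 16-h/F. Of the 17 16-h/S cells 3 had no reads, and the 8 highest of all 43 cells were 16-h/S cells, 5 of them with an ERCC share above 0.5. Below 7.11 the subgroups overlapped. The means were 6.53 ± 3.65 (SD, n = 17) and 2.86 ± 2.69 (n = 26). Reads were found in 14 of 17 cells (82.4%, exact 95% interval 56.6 to 96.2) and in 15 of 26 (57.7%, 36.9 to 76.6), and after thinning to 90000 reads in 82.4% and 56.5%. A random 16-h/S cell was above a random 16-h/F cell with a probability of 0.82, where ties were shared equally between the subgroups.

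ARN2 (YHL047C) ran from 0 to 11.3 with a median of 4.00 in 16-h/S and from 0 to 7.37 with a median of 0 in 16-h/F. Reads were present in 11 of 17 slow cells and in 8 of 26 fast cells, and the subgroups overlapped between 0 and 7.37. Its means were 4.44 ± 4.03 and 1.48 ± 2.73. FET3 (YMR058W) had reads in every 16-h/S cell, from 1.39 to 8.67 with a median of 7.40, and in 20 of the 26 16-h/F cells, from 0 to 9.75 with a median of 5.71. The highest FET3 value was thus in a fast cell, and the difference lay in the 6 fast cells without reads as well as in the medians. FIT2 (YOR382W) ran from 0 to 10.1 with a median of 5.63 in 16-h/S and from 0 to 7.49 with a median of 3.61 in 16-h/F.

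The 5 slow cells rich in spike-in held the 4 highest FIT3 values and the highest FIT2 value. FIT3 was 8.52 to 11.7 in these 5 cells and 0 to 8.60, with a median of 6.34, in the other 12 cells of 16-h/S. FIT2 was 6.07 to 10.1 in the 5 and had a median of 3.29 in the 12, below the median of 3.78 in the 25 16-h/F cells not rich in spike-in. FET3 did not follow this order, with a median of 7.40 in the 5 cells and 7.51 in the 12. The 1 fast cell rich in spike-in had no reads of FIT3, FIT2 or ARN2. With these 6 cells left out, the relative difference was 1.95 for FIT3, 1.65 for ARN2, 2.19 for FET3 and 0.24 for FIT2. The part that spike-in share and genes detected have in the result was not tested. Among the 4 slow and 8 fast cells that share a range of 2211 to 2590 genes detected, ARN2 kept 2.26 and FET3 2.91, while FIT3 had 0.81 and FIT2 −0.86. By the ratio of mean normalized counts FET3 was at 0.57.

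The 4 iron genes were also compared cell by cell. Reads of FIT3, FIT2, ARN2 and FET3 together were present in 11 of the 17 16-h/S cells and in 4 of the 26 16-h/F cells. At the other end, at most 1 of the 4 was detected in 1 slow cell, and in 16-h/F 7 cells had reads of 1 and 1 cell of none. Across cells, Pearson's r between pairs of them ran from −0.19 to 0.84 in 16-h/S and from 0.11 to 0.49 in 16-h/F over 6 pairs, where both genes of a pair share the library and its depth. The subgroups are a split by generation, so a correlation over all 43 cells restates the difference between them. Over these cells FIT3 had r = −0.55 with generation (Spearman's rho −0.58, and r = −0.57 when the 2 cells of most extreme generation were dropped). Within 16-h/S r was −0.44 (rho −0.44, n = 17) and within 16-h/F −0.13 (rho −0.18, n = 26). Over all cells the other iron genes had weaker relations, with r of −0.23 for FIT2, −0.37 for ARN2 and −0.31 for FET3. Within 16-h/S r was −0.11, −0.08 and −0.33 for these genes. It depended on single cells there. With 2 cells dropped in the same way, r within 16-h/S was −0.60 for FIT3, −0.59 for FIT2, −0.35 for ARN2 and −0.26 for FET3. The mean of FIT3 was 7.49 in the 1 cell at generation 5, 8.72 in the 4 cells at generation 6, 7.76 in the 4 at generation 7, 4.70 in the 8 at generation 8, 3.38 in the 10 at generation 9, 2.52 in the 11 at generation 10, 2.78 in the 2 at generation 11 and 2.37 in the 3 at generation 12. These correlations are descriptions over cells of 1 sample.

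**Figure D3:**
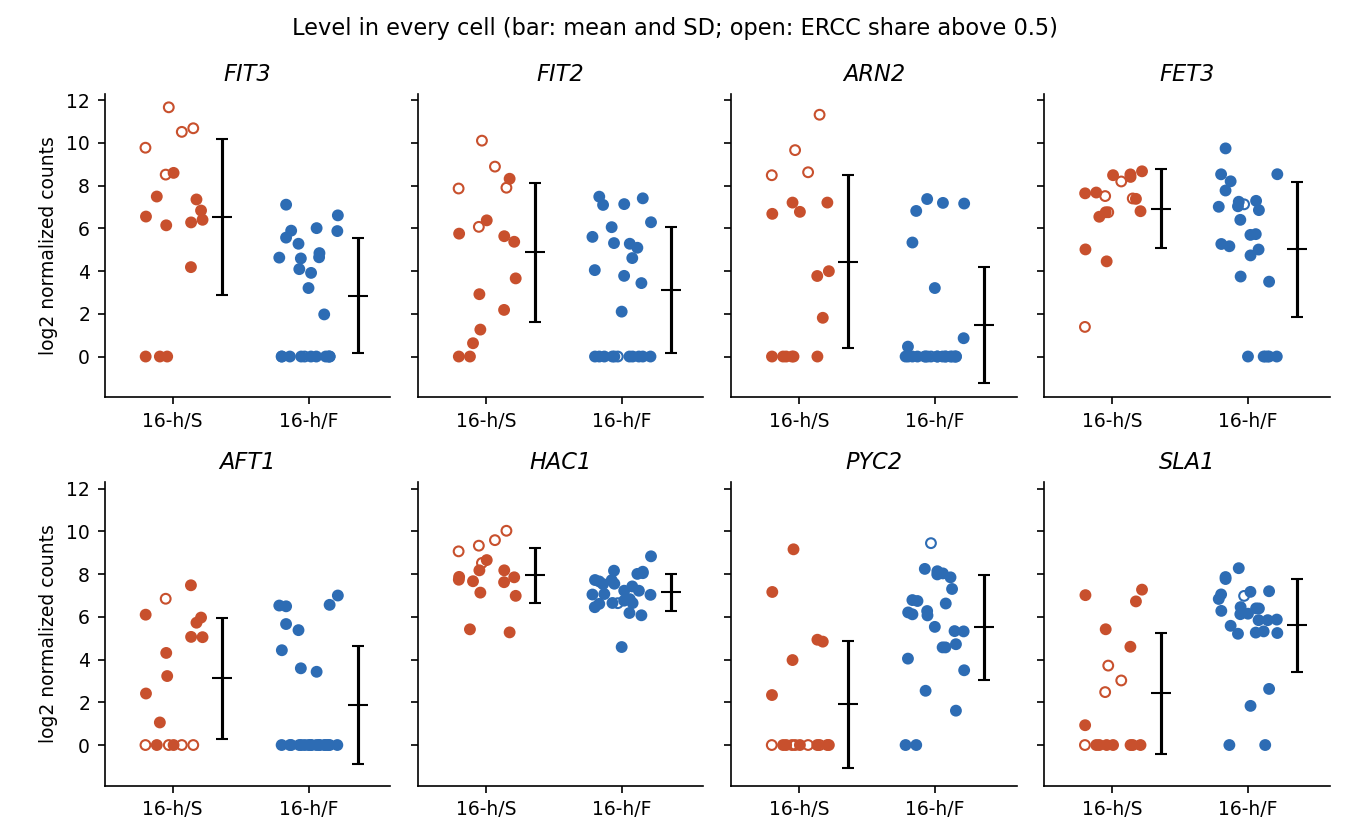
Level of 8 genes in every cell in log2 normalized counts, red for 16-h/S (n = 17) and blue for 16-h/F (n = 26), open where the ERCC share was above 0.5, with the mean and SD among cells as a bar. Of the 5 highest FIT3 points 4 are open red points, the FET3 points at 0 are all blue, and most PYC2 points of 16-h/S lie at 0.

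Most other tested genes of iron uptake were not past the fold. Of the 7 genes listed for the cell wall and for siderophores, 5 were tested, and 3 of them (FIT3, ARN2 and FIT2) were past the fold upward and none downward, beside 10.5% and 10.2% of all genes tested. ARN2 entered the test through 16-h/S alone. Without the 6 cells rich in spike-in the median was 0.24 in place of 2.18. Of the 5 genes, 2 were then past the fold upward and 1 downward (ENB1 at −1.35), where 13.2% and 13.8% of all genes were. SIT1 and ENB1, the transporters of ferrioxamine B and enterobactin, had relative differences of 0.32 and 0.13. FIT1 had reads in 2 slow cells and 1 fast cell, and ARN1, which imports ferrichromes, in 7 and 6, too few to be tested. Of the 13 genes of reductive uptake 7 were tested. Of these 7, 2 were past the fold upward and none downward, beside 10.5% and 10.2% of all genes. They were FET3 at 2.31 and FRE6, a vacuolar metalloreductase, at 1.03, and FRE6 was at 0.27 without the cells rich in spike-in. FTR1, the iron permease that works in 1 complex with Fet3, was at −0.52, FRE1, the main surface ferric reductase, at −0.03 and FET5, a vacuolar oxidase, at −0.09. The 7 had a median of −0.03. FRE2, FRE3, FRE4 and FRE5 had reads in at most 5 cells of either subgroup.

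Among regulators and iron recycling, 5 of 13 genes were tested and 2 were past the fold upward and none downward, beside 10.5% and 10.2% of all genes, but both entered the test only through 16-h/S, where they were high. AFT1, the activator of the iron regulon, ran from 0 to 7.48 with a median of 3.23 in 16-h/S and from 0 to 7.0 with a median of 0 in 16-h/F, with reads in 11 of 17 and 9 of 26 cells. Its relative difference was 1.52, and 1.88 without the 6 cells rich in spike-in, since AFT1 had reads in only 1 of the 5 slow cells of that kind. TIS11 (also known as CTH2), which promotes decay of transcripts of iron-using proteins, was at 1.70 and had reads in 10 cells of each subgroup. Its reads were in all 5 spike-in-rich slow cells and in 5 of the other 12, and without the 6 cells it no longer met the 50% condition. GRX3, BOL2 and FRA1, which pass the state of iron-sulfur clusters on to Aft1, were at 0.40, 0.55 and −0.72. HMX1, the haem oxygenase, AFT2 and MRS4 were not tested. Of 15 genes of iron-sulfur cluster assembly 8 were tested, with a median of −0.30. Of these 8, 6 entered the test through 16-h/F alone, NFS1 among them. Without a filter on genes the median of all 15 was −0.02. ISU1, the scaffold on which clusters are built, was the highest at 1.35 and NFS1, the cysteine desulfurase, the lowest at −1.08, and ISU1 was at 0.18 without the spike-in-rich cells.

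The other genes of the first 12 had varied functions. AGP1, an amino acid permease, had a relative difference of 2.60, with reads in 9 of 17 and 8 of 26 cells. PDR3, an activator of drug efflux genes, was at 2.49, BRN1, a condensin subunit, at 2.44 and GIS1, a regulator of genes induced on nutrient limitation, at 2.38. SAE2, an endonuclease of double-strand break repair, was at 2.34, RSC4, of the RSC chromatin remodelling complex, at 2.29, and BUD22, a ribosome assembly protein, at 2.28. PAN2, of a poly(A) nuclease, and ERV41, of vesicles between the endoplasmic reticulum and the Golgi, were both at 2.21. For 7 of the 12 genes, fewer than 50% of the fast cells had reads, so these 7 could not have been tested had they been low in 16-h/S too. All 12 overlapped widely between the subgroups, and GIS1, for example, ran from 0 to 11.3 in 16-h/S and from 0 to 7.53 in 16-h/F.

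The largest difference downward was in PYC2. PYC2 (YBR218C, chromosome II:658707-662249), 1 of a pair of genes for pyruvate carboxylase, which makes oxaloacetate from pyruvate, ran from 0 to 9.16 with a median of 0 in 16-h/S and from 0 to 9.45 with a median of 6.10 in 16-h/F. It had reads in 6 of 17 slow cells (35.3%, exact 95% interval 14.2 to 61.7) and in 24 of 26 fast cells (92.3%, 74.9 to 99.1). The means were 1.91 ± 2.98 and 5.52 ± 2.46 and the relative difference was −3.24. With a pseudocount of 10 the relative difference was −1.72, and by the ratio of mean normalized counts it was −1.42. Its paralog PYC1, chosen after its values were seen, had a relative difference of 0.66, with reads in 17 of 17 slow cells and 24 of 26 fast cells. Of the 3494 windows of 50 bases in PYC2, 295 occur elsewhere in the genome, and whether reads in these stretches were placed uniquely was not tested. The 5 slow cells rich in spike-in had no PYC2 reads, the fast cell of that kind had the highest value of all, and without the 6 cells the relative difference was −2.70.

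SLA1 (YBL007C), an adaptor of cortical actin patches and endocytosis, ran from 0 to 7.28 with a median of 0.93 in 16-h/S and from 0 to 8.28 with a median of 6.14 in 16-h/F. Reads were present in 9 of 17 and 24 of 26 cells, and most fast cells lay above the slow median. Its relative difference was −2.81, and −2.90 without the 6 cells rich in spike-in. MF(ALPHA)1 was at −2.23, with reads in 8 of 17 slow cells and 20 of 26 fast cells. RPT1, an ATPase of the proteasome base, was at −2.17, with medians of 2.38 and 6.04. PRS5, of phosphoribosyl pyrophosphate synthesis, was at −2.16, GLY1, threonine aldolase, at −2.12 and ATG27, a membrane protein of autophagy, at −2.12. ATG27 had reads in 1 of 17 slow cells and in 19 of 26 fast cells. SAH1, S-adenosylhomocysteine hydrolase, was at −2.06 and NOP58, a core protein of box C/D snoRNPs, at −2.05. WRS1, tryptophanyl-tRNA synthetase, and CKB1, a regulatory subunit of casein kinase 2, were both at −2.05. Of the 12 lowest genes 6 entered the test through 16-h/F alone, and 32 of the 417 windows of 50 bases in MF(ALPHA)1 occur elsewhere in the genome.

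Fewer genes of high level, which have reads in nearly every cell, were past the fold. Of the 148 tested genes with a level of at least 7, 5 were past the fold (3.38%), against 21.9% of those below 7. URA2, which carries out the first steps of pyrimidine synthesis, had reads in all 17 slow cells, from 7.05 to 12.2 with a median of 8.62, and in 24 of 26 fast cells, from 0 to 9.75 with a median of 7.74. Its relative difference was 2.04, and 1.24 without the 6 cells rich in spike-in, while the other tested genes of pyrimidine synthesis lay between −1.48 (FUR1) and 0.70. HAC1, the transcription factor of the unfolded protein response, ran from 5.27 to 10.0 with a median of 7.87 in 16-h/S and from 4.59 to 8.84 with a median of 7.15 in 16-h/F. The subgroups overlapped from 5.27 to 8.84. HAC1 was 8.53 to 10.0 in the 5 slow cells rich in spike-in, and without the 6 cells the relative difference was 0.16 in place of 1.13, while the part of spike-in share in it was not tested. SAM1, S-adenosylmethionine synthetase, was at −1.57, with reads in every fast cell and in 14 of 17 slow cells. NCE103, carbonic anhydrase, was at 1.11 and PMA1, the plasma membrane proton pump, at −1.03, both chosen after their values were seen, and without the 6 cells they were at 0.44 and −0.89.

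Of the unfolded protein response, 9 of 15 genes were tested, with HAC1 alone past the fold upward and KAR2, the Hsp70 of the endoplasmic reticulum, alone downward, at −1.29, beside 10.5% and 10.2% of all genes. The median of the 9 was −0.08. Without the cells rich in spike-in KAR2 was at −0.83, and the list had 12 tested genes and a median of 0.48. Of these 12, 3 were past the fold upward and 1 downward, where 13.2% and 13.8% of all genes were. Of 16 tested cytosolic chaperones 3 were past the fold upward and 1 downward, beside the same shares, from AHA1, a cochaperone of Hsp90, at 1.44 to SSB1, a ribosome-bound Hsp70, at −1.41, which was −0.27 without those cells.

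Of the TCA cycle, which oxidizes acetyl-CoA in mitochondria, 6 genes lay above their neighbours in 16-h/S and 5 below. All 11 genes of the list were tested, each through both subgroups, and 4 were past the fold upward and none downward, beside 10.5% and 10.2% of all genes. They were CIT1, citrate synthase, at 1.42, IDH1 and IDH2, both subunits of NAD-dependent isocitrate dehydrogenase, at 1.41 and 1.34, and LSC1, of succinyl-CoA ligase, at 1.01. ACO1, aconitase, was at 0.96. KGD1, KGD2 and LPD1 of the oxoglutarate dehydrogenase complex, FUM1, fumarase, and MDH1, malate dehydrogenase, lay between −0.49 and −0.15, and the median of the 11 was 0.80. CIT1 ran from 0 to 8.58 with a median of 6.0 in 16-h/S and from 0 to 8.78 with a median of 4.80 in 16-h/F, so that no slow cell exceeded the highest fast cell. It was 6.0 to 8.58 in the 5 slow cells rich in spike-in and 0 in the fast cell of that kind, and the part of spike-in share in the result was not tested. Without the 6 cells rich in spike-in the median of the list was 0.07, CIT1 was at 0.02 and IDH2 at 0.07, while IDH1 kept 1.35 and ACO1 0.85. CIT1, ACO1, IDH1 and IDH2 are known targets of the retrograde pathway from mitochondria to the nucleus, together with CIT2, the peroxisomal citrate synthase, and DLD3, a lactate dehydrogenase. These 6 genes were put together after the values were seen, and CIT2 was at 1.74 and DLD3 at 0.47, or 0.33 and 0.06 without the 6 cells.

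Lists of the respiratory chain had medians near 0. Complexes II and III with cytochrome c had a median of 0.17 over 7 tested of 15 genes, nuclear complex IV genes 0.08 over 7 of 9, and ATP synthase 0.17 over 15 of 15. ATP20, a small subunit of ATP synthase, was the highest at 2.17, and COR1 of complex III and COX4 of complex IV the lowest at −1.39 and −1.36. COR1 and COX4 each had reads in 2 of 17 slow cells, against 15 and 13 of 26 fast cells, so both entered the test through 16-h/F alone. Of the 7 tested genes of complexes II and III with cytochrome c, 6 entered in that way. Of the 7 of complex IV, 3 entered through 16-h/F alone and 2 through 16-h/S alone. Without a filter on genes the medians of these lists were −0.09 and −0.11. Mitochondrial ribosomal proteins had a median of 0.14 over 26 tested of 54 genes. Of these 26, 14 entered through 16-h/F alone, and without a filter the median of all 54 was −0.06. Genes of the mitochondrial genome itself were counted through oligo-dT priming, which captures them poorly, and 5 of 5 were tested with a median of 0.47 and COB at 1.46 (0.31 without the cells rich in spike-in), where COB contains other annotated reading frames in its introns.

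Of the proteasome, the complex that degrades ubiquitinated proteins, more genes were past the fold downward than upward. Of the 36 genes of the list 35 were tested, all through both subgroups, and 9 were past the fold downward and 1 upward, beside 10.2% and 10.5% of all tested genes. Besides RPT1 they included the base subunits RPT4 at −1.67, RPN1 at −1.66 and RPT6 at −1.63, and UMP1, a chaperone of proteasome assembly, at −1.46, while PUP3, a subunit of the core, was at 1.41. RPT6 ran from 0 to 8.04 with a median of 3.67 in 16-h/S and from 1.20 to 7.78 with a median of 5.75 in 16-h/F. It had reads in all 26 fast cells and in 10 of the 17 slow cells. The median of the 35 was −0.26, it lay between −0.41 and −0.09 in all 12 alternatives tried, and without the 6 cells rich in spike-in 9 genes were past the fold downward and 2 upward, where 13.8% and 13.2% of all genes were.

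**Figure D4:**
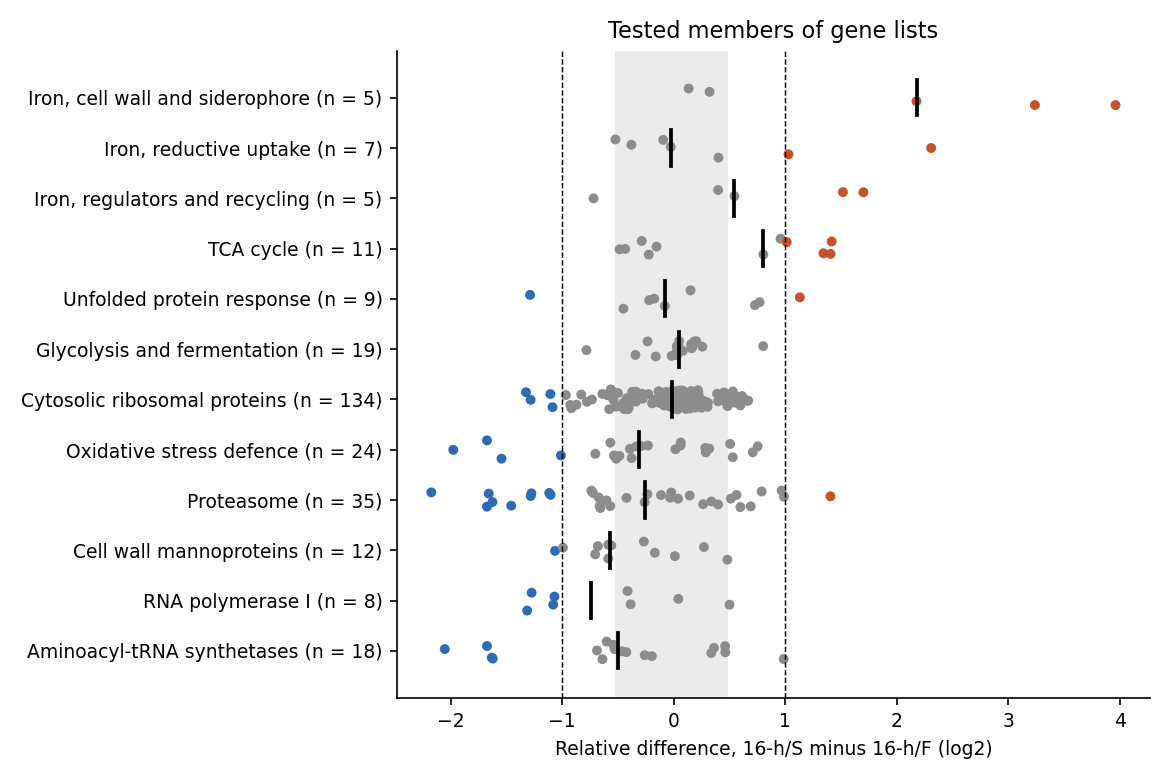
Relative differences of the tested members of 12 gene lists, 1 point per gene, red or blue where past the fold, with the median of the list as a bar and the range between the quartiles of all 2269 tested genes shaded. Iron genes of the cell wall and siderophore list reach 3.96 on the right, and 9 of the 35 proteasome genes lie left of −1.

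Genes for making ribosomes and proteins split by kind. Cytosolic ribosomal proteins, with 134 of 137 genes tested, had a median of −0.01. Of these 134, 4 were past the fold downward (RPL18B the lowest at −1.32) and none upward, beside 10.2% and 10.5% of all genes. RNA polymerase I, which transcribes the large ribosomal RNA, had a median of −0.74 over 8 tested of 10 subunits, with 4 past the fold downward and none upward, beside 10.2% and 10.5% of all genes, and RPA49 the lowest at −1.31. Of these 8, 5 entered the test through 16-h/F alone, and the median was 0.37 in the shared range of genes detected. Ribosome assembly factors had 10 genes downward and 5 upward of 42 tested, beside 10.2% and 10.5% of all genes, and a median of −0.09, from NOP58 at −2.05 to NOP9 at 1.85. Of the 42, 15 entered the test through 16-h/F alone. Translation elongation factors had a median of 0.04 and none past the fold. The cytosolic aminoacyl-tRNA synthetases were put together after WRS1 had been seen, so their values are no support for a pattern. Of the 18, 4 were past the fold downward and none upward, beside 10.2% and 10.5% of all genes. The 4 were WRS1, GLN4, TYS1 and DED81, at −2.05, −1.67, −1.63 and −1.62. FRS2 was the highest of the 18 at 0.99, and the median was −0.50. DED1, a helicase of translation initiation at −1.98, and NCL1, a tRNA methyltransferase at −1.92, both named after their values were seen, were also lower.

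Glycolysis and fermentation stood at the level of other genes. Of its 22 genes 19 were tested, none was past the fold, and the values ran from −0.78 (CDC19, pyruvate kinase) to 0.80 (ADH2, the glucose-repressed alcohol dehydrogenase) with a median of 0.04. HXT1 and HXT3, the hexose transporters of high glucose, were at 0.57 and 0.25. Defence against oxidants had 4 genes of 24 tested past the fold downward and none upward, beside 10.2% and 10.5% of all genes, with a median of −0.31. These were GPX2, a glutathione peroxidase, at −1.98, GSH1, which starts glutathione synthesis, at −1.67, SOD2, the mitochondrial superoxide dismutase, at −1.54, and GLR1, glutathione reductase, at −1.01. Without the cells rich in spike-in SOD2 was at −0.55 and GLR1 at −0.68, no longer past the fold, and the median was −0.11. GLR1 had reads in all 26 fast cells, from 5.05 to 9.80, and in 15 of 17 slow cells, from 0 to 9.18. Trehalose and glycogen genes had a median of −0.11, with TPS2, trehalose phosphatase, at −1.57.

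Cell wall mannoproteins other than the FIT genes had a median of −0.57 over 12 tested of 22, and 9 of 12 were below 0. CWP1 alone was past the fold, at −1.06 (−0.86 without the cells rich in spike-in), beside 10.2% of all genes downward and 10.5% upward. Genes of the cell cycle are listed because each cell was caught at a single point of its cycle. Histone genes, made in S phase, had a median of 0.01 over 8 of 8 with none past the fold. Without the 6 cells rich in spike-in all 8 lay above 0, 4 were past the fold upward, where 13.2% of all genes were, and the median was 0.90. Over all cells their per-cell mean was 5.0 ± 2.74 in 16-h/S and 5.17 ± 2.17 in 16-h/F. CLN1, a G1 cyclin, was at 1.94 and CLN3, the cyclin upstream of it, at −1.19. Of 15 genes of the M/G1 interval and cell separation only 3 were tested, among them DSE2, a glucanase-like protein of daughter cells, at 1.41. Ergosterol synthesis had 5 genes upward and 3 downward of 19, beside 10.5% and 10.2% of all genes, from HMG1, HMG-CoA reductase, at 2.02 to IDI1, isopentenyl diphosphate isomerase, at −1.64.

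Some genes kept a relative difference of at least 1 in the same direction in all 12 alternatives tried. There were 9 of the 239 higher genes and 13 of the 231 lower genes, and apart from those already named they were chosen for this after their values were seen. The higher genes included ARN2, RSC4, EXO84 of the exocyst at 2.11, BEM3, a GTPase-activating protein for Cdc42, at 1.98, POM152 of the nuclear pore at 1.90 and OSH2, an oxysterol-binding protein, at 1.85. The lower genes included PYC2, SLA1, PRS5, SAH1, WRS1, DED1, NCL1, RPT4, IDI1, DED81 and SUR7, a protein of eisosomes, at −1.93, together with GPD1, glycerol-3-phosphate dehydrogenase, at −1.72. GPD1 ran from 0 to 8.4 with a median of 3.94 in 16-h/S and from 0 to 8.91 with a median of 6.85 in 16-h/F. The alternatives share cells with the comparison itself and are not independent of it.

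At 36 h the same split was made in other cells, 18 slow (36-h/S) and 27 fast (36-h/F), and no cell is shared with 16 h. At that age 2063 genes were tested and 377 (18.3%) were past the fold upward and 318 (15.4%) downward, together 33.7%. Of the 1666 genes tested at both ages, 53.7% had a relative difference of the same sign, and Pearson's r across genes was 0.14 (Spearman's rho 0.12), where genes are not independent replicates. Of the genes past the fold upward at 16 h, 174 were tested at 36 h and 92 of them (52.9%) were above 0, against 49.9% of all 1666. Of those past the fold downward, 162 were tested and 63 (38.9%) were above 0.

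The 4 leading iron genes stood higher in the slow cells at both ages, and at 36 h all 5 tested genes of the cell wall and siderophore list were past the fold upward. Of these 5, FIT3, ARN2 and ENB1 entered the test there only through the slow cells, in which they were high. FIT3 had a relative difference of 5.72 at 36 h, with values from 0 to 12.7 and a median of 9.63 in 36-h/S, and from 0 to 10.3 and a median of 0 in 36-h/F. FIT2 was at 4.03, ARN2 at 2.31 and FET3 at 2.05. In 36-h/S 13 cells and in 36-h/F 24 cells had an ERCC share of at most 0.5, and among these FIT3 was at 4.60, FIT2 at 3.46 and FET3 at 1.97, while ARN2 had reads in too few cells to be tested, an alternative chosen after the data were seen. HAC1 was at 1.41 and URA2 at 1.57 at 36 h. Of the TCA genes, 1 was past the fold upward and 4 downward at 36 h, with IDH2 at −2.28, ACO1 at −2.32, IDH1 at −1.14 and CIT1 at −0.02, and CIT2 was at 2.46. PYC2 and RPT1 were above their neighbours in the slow cells at 36 h, at 1.50 and 1.31, whereas SLA1 was at −0.96, SAH1 at −1.27 and MF(ALPHA)1 at −1.06.

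**Figure D5:**
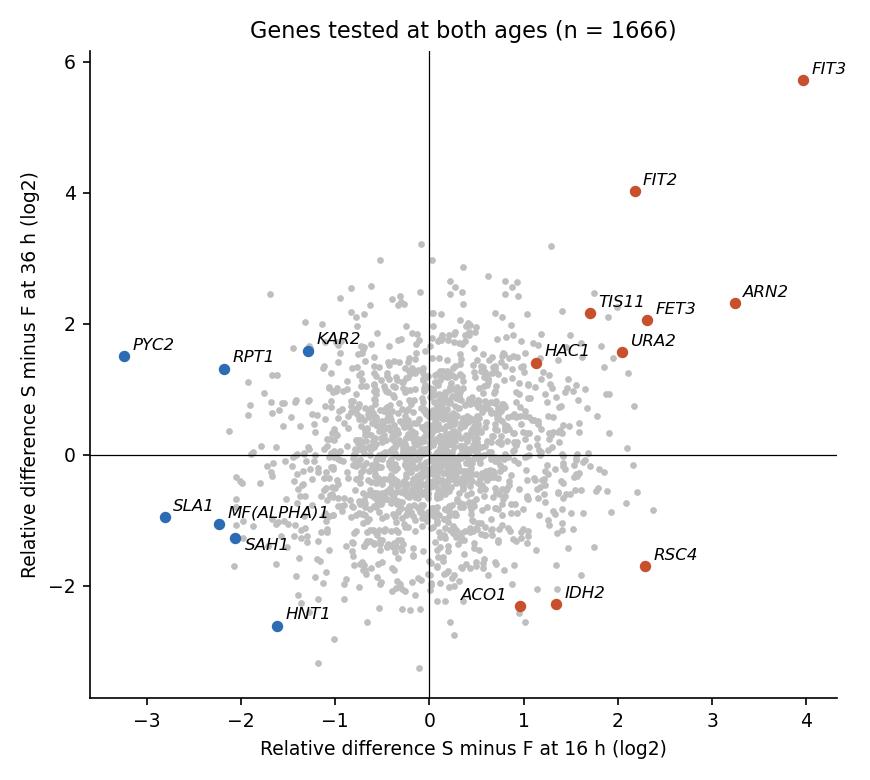
Relative difference S minus F at 16 h (horizontal) and at 36 h (vertical) for the 1666 genes tested at both ages, with named genes in red where higher and blue where lower in 16-h/S. FIT3, FIT2, ARN2, FET3, TIS11, URA2 and HAC1 lie in the upper right, and PYC2, RPT1 and KAR2 in the upper left.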

How the data were processed

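Each of the 43 libraries came from 1 cell that was isolated by hand and amplified with Smart-seq2, which primes polyadenylated RNA with oligo-dT and has no molecular identifiers, so exact (Clopper-Pearson) 95% intervals cover counting error only. The authors mapped reads with HISAT2 2.1.0 to the R64 genome, used SAMtools 1.1 for sorting, counted reads per gene with featureCounts, dropped cells with few genes, few reads or a dominant spike-in, and divided the counts by DESeq2 size factors. The deposited values are log2 normalized counts with a pseudocount of 1. Undoing the log2 gave whole reads for all 278228 values above 0 (tolerance 0.05, largest deviation 8.41e-05). The strand setting of the counting is not given in the sources used here. Of the gene identifiers, 5693 matched RefSeq's R64 annotation and 304 did not. At 16 h, 60.8% of values were 0.

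Subgroups, generations and ERCC shares were read from the study's sample list. Means, ranges and relative differences (200 neighbours) were computed in Python 3.11.15 with numpy 2.4.6, pandas 2.3.3 and scipy 1.17.1, without p values. The study compared these cells with DESeq2, with cells as replicates, which was not done here. Genes named are the 12 highest and 12 lowest by relative difference, the highest and lowest of each of 40 gene lists, all members of the 3 iron lists and the strain lists, and HAC1, and other genes named, the aminoacyl-tRNA synthetases and the retrograde targets were chosen after their values were seen. Of the genes the rule names, 1 is not reported here. Members, lists and tests were chosen with earlier results of these data known. The 12 alternatives were another scaling, leaving out cells with an ERCC share above 0.5, thinning to 90000 reads (10 draws), a shared range of genes detected, 2 other splits by generation (at most 7 against at least 10, and 8 against 9), 2 other filters on genes, a pseudocount of 10, 100 or 400 neighbours, and the ratio of mean counts. The procedure was tested on simulated data, in which both subgroups had the same mean shares of reads apart from genes changed on purpose. The simulated cells differed in read totals, but none was rich in spike-in. How such cells affect the values was therefore not tested by the simulation.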

Additional observations from a re-analysis of the deposited data

How the results depend on the processing

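The 43 cells form 1 sample per subgroup, so the alternatives show how values depend on the processing and not how they would vary between cultures. No paired analysis was possible because the subgroups hold different cells and the numbers in the labels pair none of them. The number of genes past the fold upward was 239 of 2269 tested, and the alternatives tested other numbers of genes. It was 811 of 3333 in the shared range of genes detected (4 slow and 8 fast cells). It was 423 of 2351 for generation at most 7 against at least 10 and 611 of 3076 for generation 8 against 9. With reads in at least 10% of cells it was 395 of 5324, without a filter 396 of 5944 and with a pseudocount of 10 44 of 2269. The number downward, 231 of 2269, was 852, 380, 573, 399, 399 and 30 in the same order and of the same numbers tested. Without the cells with an ERCC share above 0.5 it was 352 of 2555. In the shared range the median of the cell wall and siderophore list turned to −0.86, that of iron regulators to −0.77 and that of complex IV to −1.09, and the median of the M/G1 list turned to −0.60 for generation at most 7 against at least 10. Other list medians moved too. Without the cells rich in spike-in, that of the cell wall and siderophore list was 0.24 in place of 2.18. Those of the TCA cycle and of histones were then 0.07 and 0.90 in place of 0.80 and 0.01. For generation 8 against 9 the G1 and S phase genes had 1.55 in place of −0.16. In the shared range RNA polymerase I had 0.37 in place of −0.74. The median kept its sign in 3 of 12 alternatives for complex IV, in 5 for reductive uptake and in all 12 for the proteasome. Also in the shared range, PDR3 was at −0.87, PAN2 at −0.41, ISU1 at −1.52, COX5B at −1.55, CIT1 at −2.36, TOM40 at 0.41, TPS2 at 0.59, SSB1 at 1.21, ATG8 at −0.0060, FIT2 at −0.86, FRE6 at −1.27, IDH1 at −0.11, LSC1 at −0.28, CIT2 at −0.47, PRY3 at −0.24 and NCE103 at −0.25. For generation 8 against 9, NFS1 was at 0.85, CIT1 at −0.41 and ATG8 at −0.0040, and NFS1 was at 0.22 by the ratio of mean counts. The splits and the shared range hold fewer cells and the other filters more genes, and the cause of each change was not tested. Without the spike-in-rich cells the median difference of all genes was 0.0066 in place of −0.38, and 148 of the 239 and 175 of the 231 genes were past the fold in the same direction. The same choice at 36 h was added after the data were seen. With 60.8% of values at 0 and 17 and 26 cells, a gene of low level can pass the fold through reads in a few cells.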
